A study of Mus musculus with 6 samples.

Results

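The clustered protocadherins are a family of cell adhesion genes that lie side by side on mouse chromosome 18, and 54 of the 55471 genes in the count table belonged to it here. A member was a protein coding gene whose symbol starts with Pcdha, Pcdhb, Pcdhga, Pcdhgb or Pcdhgc followed by a number and which had a total of at least 30 counts over the 6 libraries. The symbols of 56 genes fitted this pattern. Of these, Pcdhgb8 was left out because it is annotated as a polymorphic pseudogene, and Pcdhga10 because it had 0 counts. The members with the fewest counts were Pcdha4 with a total of 42 and Pcdhb1 with 77. The members comprised 12 Pcdha (alpha), 22 Pcdhb (beta), 11 Pcdhga, 6 Pcdhgb and 3 Pcdhgc genes, and they spanned 911.7 kb (GRCm38 chromosome 18, 36930184 to 37841873). The symbol Pcdha11 is carried by 2 identifiers, ENSMUSG00000007440 and ENSMUSG00000102206, which are separate members. Pcdhac1 and Pcdhac2, the C-type genes at the end of the alpha cluster, have no number directly after Pcdha and are described beside the members without being counted among them.

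Protocadherins are transmembrane proteins with extracellular cadherin repeats that bind the same isoform on a neighbouring cell. Each variable exon of the alpha and gamma clusters has its own promoter and is spliced to constant exons shared by the whole cluster, whereas a beta gene is a single coding exon and has no constant part. Individual neurons switch on a small set of these promoters, a choice that depends on CTCF, cohesin and DNA methylation, and the resulting combinations serve dendritic self-avoidance, axonal tiling and neuronal survival. The C-type genes are an exception to this choice, since they are used broadly and not by random selection.

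The libraries were made from total RNA of the hippocampus of C57BL/6 mice (C57BL/6J in the study's methods) aged 3 to 6 months. In CBP-ifKO mice (3 libraries) the floxed Crebbp gene, which encodes the histone acetyltransferase CBP, was removed by a tamoxifen-inducible Cre (creERT2) driven by Camk2a, that is, in forebrain excitatory neurons, while other hippocampal cells keep the gene. Control mice (3 libraries) received the same 5 intragastric doses of tamoxifen (20 mg/mL in corn oil, on alternate days). A sample description names Camk2a_creERT2 for the Control libraries too, whereas the treatment protocol states that controls were littermates negative for creERT2. Esr1, part of which is carried by the creERT2 fusion, lay between 5.65 and 6.29 TMM-scaled CPM (counts set to a common library size) in the Control libraries and between 63.6 and 69.4 CPM in the CBP-ifKO libraries. According to the study's methods, the hippocampi were pooled from females. Nothing says which animals went into which library, so the p-values measure only the spread between these pooled samples, not that between single animals.

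Library totals ran from 10199008 to 14950257 counts, of which the members took 7369 to 11968 counts, or 0.0655% to 0.0801%. Crebbp reached 156.4 to 208.6 CPM in the Control and 87.1 to 108.6 CPM in the CBP-ifKO libraries (log2 fold change -0.96, SE 0.10, adjusted p 3.63e-05 by edgeR). Markers of hippocampal cell types were detected in all libraries, with none of the 10 excitatory neuron markers at 0. The summed level of the excitatory markers, most of it from Camk2a, was 3066 to 3474 CPM in Control and 3034 to 3448 in CBP-ifKO.

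What a count stands for differs between the clusters. The alpha members share 53.3% to 93.0% of their annotated exon bases with another gene, the Pcdhga members 37.9% to 73.6%, the Pcdhgb members 31.5% to 61.3% and the Pcdhgc members 37.9% to 66.9%. Of the 22 beta genes, 19 share no base with another gene. The exceptions are Pcdhb12, which shares 63.5% with the antisense gene Gm37446, and Pcdhb21 and Pcdhb22, which share 9.67% and 6.89% of their bases with each other. The read-through loci that cover alpha exons (Gm37013, Gm37388 and Gm42416) and Pcdhga10, whose own exon is covered by the antisense gene Gm26672, were at 0 in all 6 libraries, whereas Gm26672 had 57 to 74 counts. Pcdha4, with 404 bases of its own, had 4 to 11 counts per library. In these values, reads in exons shared between genes appear not to have been assigned to any gene. The values of the alpha and gamma members are therefore read here as those of their unshared bases, for most of them the variable exon. Pcdhgb4, with 3588 unshared bases and a first exon of 2549, has some outside that exon. In Pcdhgc5 annotated exons merge into a first exon of 5567 bases, so its 4606 unshared bases may reach beyond the variable exon. Whether the counting used the strand is not given in the sources used here. Without regard to strand Pcdhga10 has 0 unshared bases, the reading on which its 0 counts follow, whereas by strand it has 2613.

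The level of each member per kilobase of its unshared exon varied widely, with Pcdhgc5 and Pcdhgc3 highest. Bases under a gene on the opposite strand were taken as shared, and the ranks of members with such overlap rest on this choice. Pcdhgc3 has 1821 unshared bases by this measure but 3380 if only its own strand is considered, and Pcdha12 has 1944 and 2475. By the second measure their levels per kb would be lower. In the Control libraries Pcdhgc5 was highest at 13.9 ± 1.36 CPM per kb (SD, n = 3), followed by Pcdhgc3 at 9.87 ± 1.09 and Pcdhga3 at 8.86 ± 2.07 CPM per kb. The Control values of Pcdhgc3 and Pcdhga3 overlapped within their SD, while Pcdhgc5 stood above both. Outside the members, Pcdhac2 was at 14.5 ± 0.16 and Pcdhac1 at 3.02 ± 0.67 CPM per kb in Control. The group medians were 2.49 CPM per kb for Pcdha, 3.03 for Pcdhb, 6.24 for Pcdhga, 4.54 for Pcdhgb and 9.87 for Pcdhgc. Among the beta genes Pcdhb16 (6.10 CPM per kb), Pcdhb17 (6.09) and Pcdhb9 (6.03) were nearly level at the top. Pcdhb1 was the lowest of all members at 0.284 CPM per kb, followed by Pcdha1 at 0.646. In the alpha cluster Pcdha12 was the highest member at 3.88 CPM per kb, in the Pcdhgb group Pcdhgb6 at 7.36, and Pcdhga1 was the lowest Pcdhga gene at 3.22 and Pcdhgb7 the lowest Pcdhgb gene at 3.79.

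**Figure D1:**
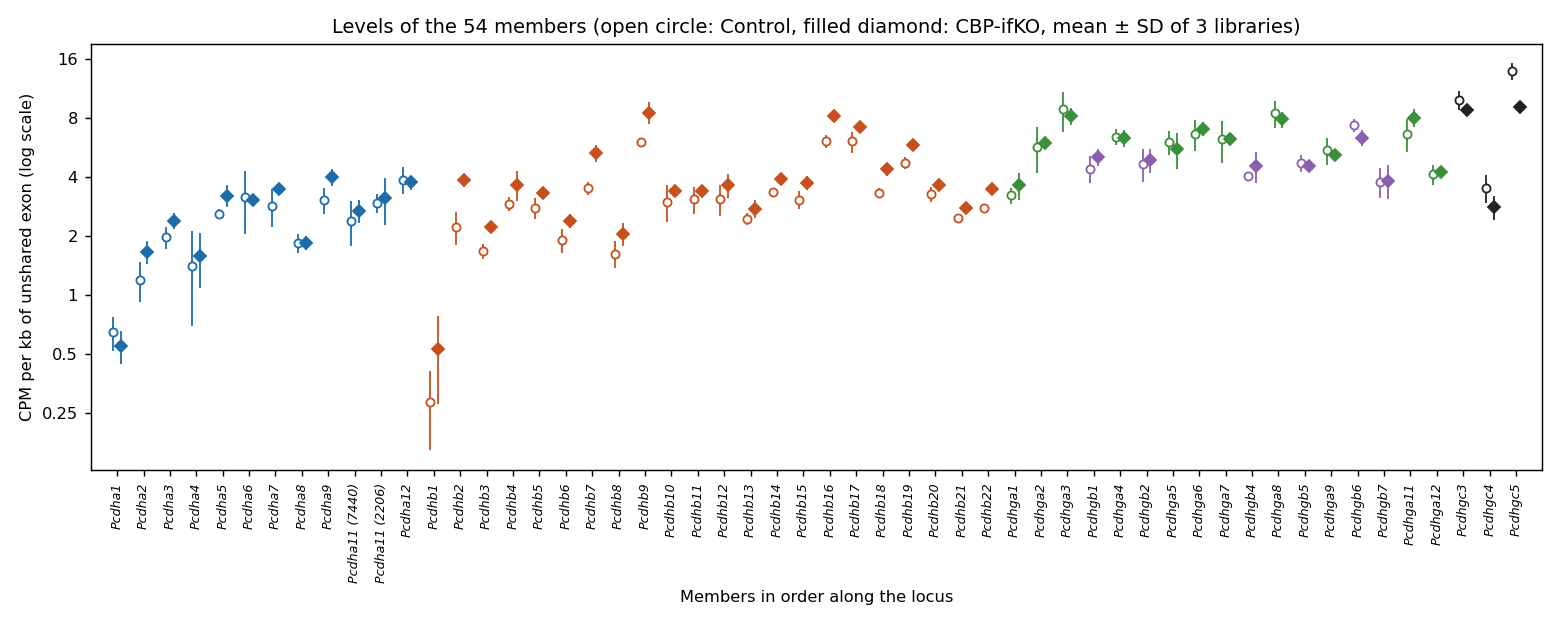
Level of the 54 members in order along the locus, as CPM per kb of exon not shared with another gene on a log axis (open circles, Control; filled diamonds, CBP-ifKO; mean ± SD of 3 libraries; the Pcdha11 genes carry the last 4 digits of their identifiers). The diamonds of the beta genes (orange) lie above their circles, whereas those of the 3 Pcdhgc genes (black) lie below.

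The comparison of interest was whether the removal of CBP was accompanied by a change in these genes. In the CBP-ifKO hippocampus all 22 genes of the beta cluster had a positive log2 fold change, 6 of them past the threshold, and the C-type gene Pcdhgc5 fell to 65.8% of its Control level. None of the Pcdha, Pcdhga and Pcdhgb members passed the test in either direction by edgeR, DESeq2 or limma-voom. Of the 54 members 53 passed the filter on low counts (Pcdha4 did not), and of these 6 rose and 1 fell at an edgeR adjusted p under 0.05. Over all 17981 genes tested the corresponding shares were 1.4% higher and 4.99% lower, and 6.39% in either direction. A positive log2 fold change was found for 40 of the 53 members, against 49.3% of all genes. The median log2 fold change was 0.18 over the members and -0.0033 over all genes tested.

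Other ways of testing gave near the same numbers of members. DESeq2 placed 6 members higher and 1 lower, where 1.47% and 5.8% of its 13100 genes with an adjusted p were called. Scaling by total counts placed 7 higher and 1 lower, where 2.86% and 3.71% of all genes were called. With the replicate number as a block it was 6 and 1 (1.45% and 5.28% of all genes), and with the block and the removal of GC and length trends 7 and 1 (3.98% and 6.25%).

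**Figure D2:**
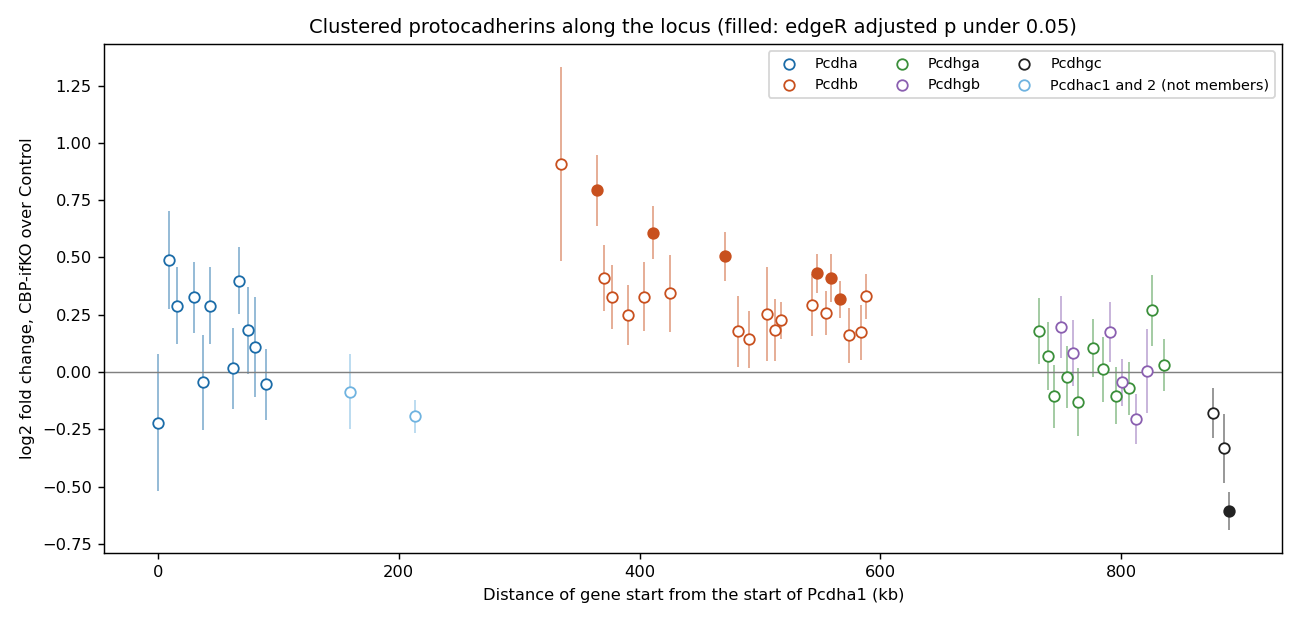
Log2 fold change (CBP-ifKO over Control, ± SE) of the 53 tested members and of Pcdhac1 and Pcdhac2 against the distance of each gene's start from that of Pcdha1, in kb. Filled symbols mark an edgeR adjusted p under 0.05: 6 beta genes above the zero line and Pcdhgc5, the most distal gene, below it.

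Every one of the 22 beta genes had a positive log2 fold change. Values ranged from 0.14 (Pcdhb11) to 0.91 (Pcdhb1) with a median of 0.32. At an unadjusted p under 0.05, 14 of the 22 were higher, against 8.23% of all genes. For 12 of them all 3 CBP-ifKO libraries lay above all 3 Control libraries, against 11.8% of all genes. The genes share libraries and sit in 1 cluster, so they are not independent replicates of the comparison. Among the 19 beta genes with no shared exon base all 19 were positive, 6 were past the threshold, and the median was 0.33.

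Pcdhb2 had the largest change of the 6 beta genes past the threshold. Control replicates 1 to 3 held 6.10, 5.15 and 7.54 CPM of it, against 11.4, 11.1 and 9.87 CPM in replicates 1 to 3 of CBP-ifKO. All CBP-ifKO libraries were above all Control libraries, the mean rose to 172% of Control, and the log2 fold change came to 0.79 (SE 0.15, adjusted p 0.00489 by edgeR). Pcdhb2 (chromosome 18, start 37294812) is the second gene of the beta cluster and directly follows Pcdhb1.

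Pcdhb7 (start 37341702) stood at 12.9, 12.7 and 11.2 CPM in Control and at 17.5, 20.8 and 17.6 CPM in CBP-ifKO. The groups did not overlap, and the log2 fold change of 0.61 (SE 0.12, adjusted p 0.00431 by edgeR) had the smallest p of the beta cluster. Pcdhb9 (start 37400855) was measured at 17.6, 19.0 and 18.7 CPM in Control and at 22.4, 26.9 and 28.9 CPM in CBP-ifKO. It rose by 0.51 on the log2 scale (SE 0.11, adjusted p 0.00831 by edgeR), the spread in CBP-ifKO being wider than in Control. Without CBP-ifKO replicate 3, its highest library, the change was 0.44 with an edgeR adjusted p of 0.0616. The study lists Pcdhb9 among genes higher across its CBP knockout screens, a list drawn in part from these libraries and thus no independent evidence.

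The remaining 3 genes sit close together toward the distal end of the beta cluster. Pcdhb16 (start 37477814) had 33.2, 29.0 and 33.3 CPM in Control and 39.8, 43.9 and 44.8 CPM in CBP-ifKO, a log2 fold change of 0.43 (SE 0.084, adjusted p 0.00517 by edgeR). Pcdhb18 (start 37489465) had 16.1, 16.1 and 17.9 CPM in Control and 22.0, 24.0 and 20.4 CPM in CBP-ifKO, a log2 fold change of 0.41 (SE 0.10, adjusted p 0.0250 by edgeR). Neither gene had overlapping groups. Pcdhb19 (start 37496991) showed 32.3, 32.5 and 36.3 CPM in Control and 40.5, 44.2 and 40.9 CPM in CBP-ifKO, a log2 fold change of 0.32 (SE 0.081, adjusted p 0.0267 by edgeR). Its groups did not overlap either. The calls of the latter genes depended on single libraries. Pcdhb18 lost its call without Control replicate 1 (adjusted p 0.0688 by edgeR), Control replicate 3 (0.0541), CBP-ifKO replicate 1 (0.0545) or 2 (0.132). Pcdhb19 lost it without CBP-ifKO replicate 2 (0.118) or 3 (0.0677) and without Control replicate 1 (0.0846). Pcdhb2, Pcdhb7 and Pcdhb16 stayed past the threshold in all 17 alternative analyses.

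**Figure D3:**
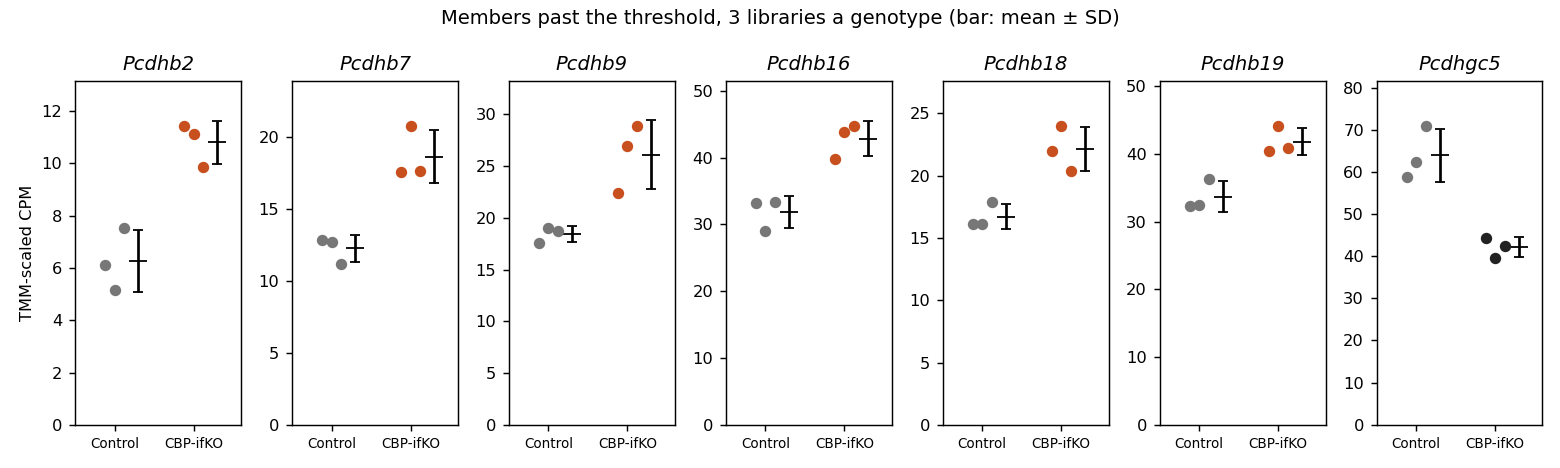
TMM-scaled CPM of the 7 members past the threshold in each of the 3 Control (grey) and 3 CBP-ifKO (coloured) libraries, with the mean ± SD beside the points and axes that start at 0. In none of the 7 panels do the groups overlap, and Pcdhgc5 is the panel in which the CBP-ifKO libraries are lower.

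Of the 16 beta genes that did not pass, Pcdhb22 came closest. Its values were 17.4, 16.9 and 17.0 CPM in Control and 20.3, 22.2 and 21.8 CPM in CBP-ifKO, without overlap (log2 fold change 0.33, SE 0.097, adjusted p 0.0528 by edgeR), and it was past the threshold in 6 of the 11 alternatives that kept all libraries but in none of the 6 that left out 1 library. Pcdhb3 had a log2 fold change of 0.41 (SE 0.15, adjusted p 0.107 by edgeR) and Pcdhb14, one of the more abundant genes at 29.1 ± 0.94 CPM in Control, one of 0.23 (SE 0.080, adjusted p 0.108 by edgeR). Pcdhb1 had the largest estimate of the cluster and the largest SE. With 4 to 24 counts per library, its levels of 1.03, 0.773 and 0.397 CPM in Control overlapped the 0.678, 1.45 and 1.97 in the CBP-ifKO libraries (log2 fold change 0.91, SE 0.42, adjusted p 0.229 by edgeR).

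Summed over its 22 genes, the beta cluster gave 289.6, 295.3 and 314.0 CPM in the Control libraries and 365.4, 394.5 and 371.0 CPM in the CBP-ifKO libraries. The mean went from 299.6 ± 12.7 to 377.0 ± 15.5 CPM (SD, n = 3), or 126% of Control, and the lowest CBP-ifKO library was at 116% of the highest Control library. The largest contributor was Pcdhb19 in Control and Pcdhb16 in CBP-ifKO, by a narrow margin. Pcdhb19 held 11.2 ± 0.29% of the beta counts in Control and 11.1 ± 0.087% in CBP-ifKO, and Pcdhb16 held 10.6 ± 0.82% and 11.4 ± 0.62%. Pcdhb2 moved from 2.08 ± 0.33% to 2.87 ± 0.24%.

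**Figure D4:**
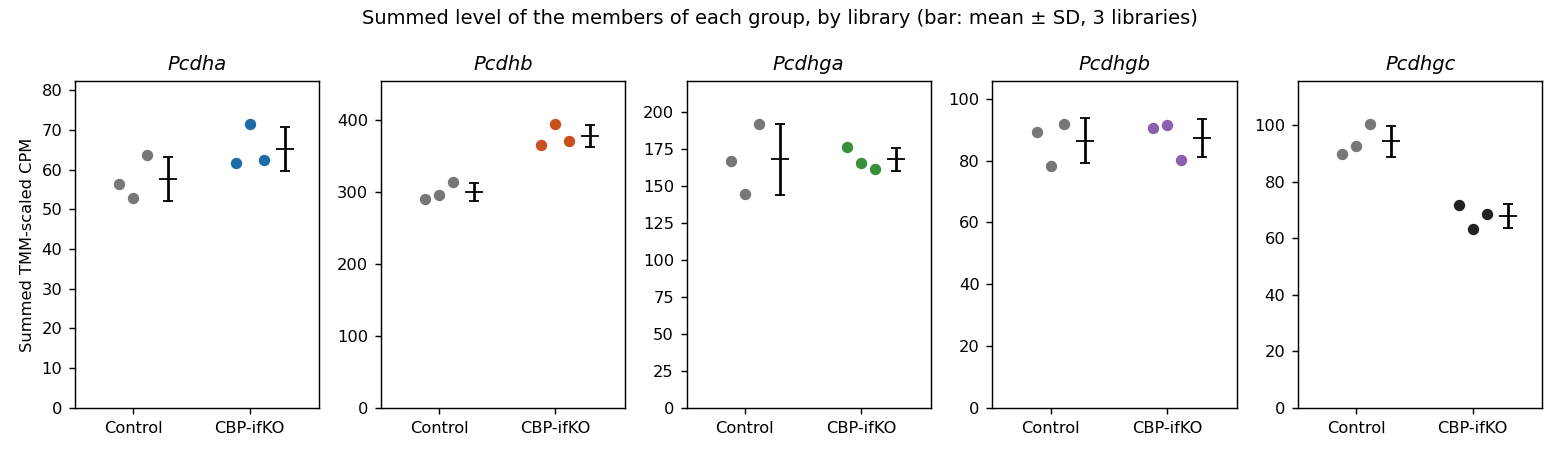
Summed TMM-scaled CPM of the members of each group in every library (grey, Control; coloured, CBP-ifKO; mean ± SD of 3 libraries beside the points; axes start at 0). The libraries separate by genotype without overlap in the Pcdhb and the Pcdhgc panels and overlap in the Pcdha, Pcdhga and Pcdhgb panels.

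The Pcdhgc genes, at the distal end of the gamma cluster, all had a negative log2 fold change. Pcdhgc5 (ENSMUSG00000102543, start 37819513), whose protein is known to associate with GABA-A receptors at synapses, stood at 58.7, 62.4 and 70.9 CPM in Control and at 44.3, 39.6 and 42.4 CPM in CBP-ifKO. All CBP-ifKO libraries were below all Control libraries, as was the case for 2 of the 3 Pcdhgc genes and for 13.9% of all genes tested. The mean fell from 64.0 ± 6.28 to 42.1 ± 2.34 CPM, with a log2 fold change of -0.61 (SE 0.081, adjusted p 3.06e-04 by edgeR). This was the smallest p of all members, and the call was kept in all 17 alternatives, where the log2 fold change lay between -0.66 and -0.51.

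Pcdhgc4, the isoform required for the survival of interneurons, had 13.6, 9.96 and 13.2 CPM in Control and 11.1, 8.35 and 9.87 CPM in CBP-ifKO. The groups overlapped, and the log2 fold change of -0.33 (SE 0.15, adjusted p 0.209 by edgeR) did not pass. At an unadjusted p under 0.05 Pcdhgc4 and Pcdhgc5 were both lower, against 13% of all genes. Pcdhgc3, which acts on dendrite arborization, had 17.4, 20.2 and 16.4 CPM in Control and 16.3, 15.3 and 16.3 CPM in CBP-ifKO. Here the CBP-ifKO libraries were all below the Control libraries by a narrow margin, with a log2 fold change of -0.18 (SE 0.11, adjusted p 0.384 by edgeR).

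The summed Pcdhgc level was 89.7, 92.5 and 100.5 CPM in Control and 71.7, 63.3 and 68.5 CPM in CBP-ifKO, a drop to 72.0% of Control in which Pcdhgc5 had the largest part. The share of Pcdhgc5 in these counts was 67.8 ± 2.59% in Control and 62.1 ± 0.48% in CBP-ifKO, while that of Pcdhgc3 was 19.2 ± 2.77% and 23.6 ± 0.77%.

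The C-type genes of the alpha cluster gave estimates of the same sign without passing the test. Pcdhac2, known for its role in the tiling of serotonergic axons, had 43.5, 44.4 and 44.1 CPM in Control and 39.5, 37.5 and 38.5 in the CBP-ifKO libraries (log2 fold change -0.19, SE 0.072, adjusted p 0.128 by edgeR), again without overlap. Pcdhac1 had 6.01, 7.73 and 9.42 CPM in Control and 7.56, 7.10 and 7.16 in the CBP-ifKO libraries (log2 fold change -0.086, SE 0.16, adjusted p 0.824 by edgeR). All 5 C-type genes of the locus thus had a negative log2 fold change and 1 of them was past the threshold. Of the other 50 tested members, 40 had a positive one.

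Among the alpha members, 2 were higher at an unadjusted p under 0.05 and 0 after edgeR adjustment, where 8.23% of all genes were higher at that unadjusted p. Of the 11 tested, 8 had a positive log2 fold change (49.3% of all genes) and the median was 0.18, with a range from -0.22 (Pcdha1) to 0.49 (Pcdha2). With CBP-ifKO replicate 2 or 3 left out the median was 0.083 or 0.29, and with Control replicate 2 or 3 left out it was 0.078 or 0.28. These are low genes, with at most 7.60 CPM on average in Control, and their SE lay between 0.15 and 0.30. Pcdha2 had 2.53, 2.66 and 3.77 CPM in Control and 3.49, 4.47 and 4.44 CPM in CBP-ifKO, which overlapped (SE 0.21, adjusted p 0.198 by edgeR). Pcdha9 had 6.76, 7.13 and 8.93 CPM in Control and 9.69, 11.0 and 9.13 CPM in CBP-ifKO, without overlap (log2 fold change 0.40, SE 0.15, adjusted p 0.123 by edgeR). Pcdha12 and Pcdha1 had values of -0.05 (SE 0.16) and -0.22 (SE 0.30). The alpha sum was 57.6 ± 5.47 CPM in Control and 65.2 ± 5.54 in CBP-ifKO, and the groups overlapped.

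The Pcdhga and Pcdhgb genes, which lie between the beta cluster and the Pcdhgc genes, had the medians nearest to 0. Of these 17 members 10 had a positive and 7 a negative log2 fold change, the groups overlapped for all 17, and 0 had an unadjusted p under 0.05. The Pcdhga median was 0.01, with a range from -0.13 (Pcdhga5) to 0.27 (Pcdhga11, SE 0.15, adjusted p 0.338 by edgeR). The Pcdhgb median was 0.04, from -0.21 (Pcdhgb6, SE 0.11, adjusted p 0.303 by edgeR) to 0.20 (Pcdhgb1). Pcdhga3, Pcdhga1 and Pcdhgb7 had log2 fold changes of -0.11 (SE 0.14), 0.18 (SE 0.15) and 0.0036 (SE 0.18). The summed level was 167.8 ± 23.7 CPM in Control and 167.8 ± 7.45 in CBP-ifKO for Pcdhga, and 86.5 ± 7.24 and 87.4 ± 6.17 CPM for Pcdhgb. The Control spread of the Pcdhga sum, from 144.5 to 192.0 CPM, was wider than the difference between the genotype means.

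**Figure D5:**
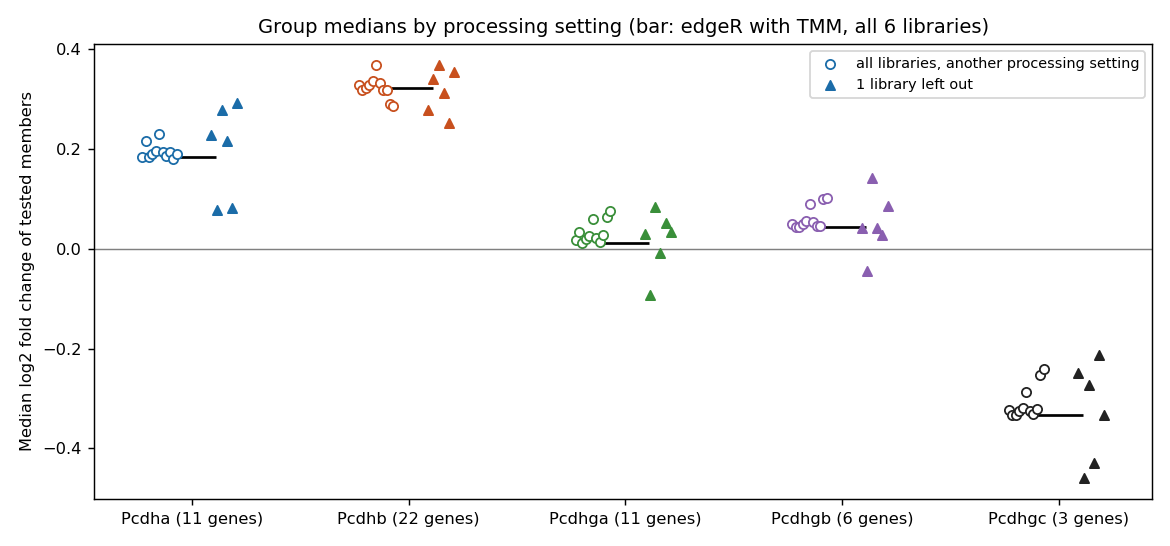
Median log2 fold change of the tested members of each group under the analysis used here (bar), under 11 other processing settings that keep all libraries (open circles) and with 1 library left out at a time (triangles). Under all of them the Pcdhb median stays between 0.25 and 0.37 and the Pcdhgc median between -0.46 and -0.21, whereas the Pcdhga and Pcdhgb medians fall on both sides of 0.

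The order of the log2 fold changes followed the GC content of the transcripts in part. GC was that of each gene's longest annotated transcript, not of the unshared exon from which the alpha and gamma counts are read. Median GC was 46.0% in Pcdhb, 47.3% in Pcdha, 52.5% in Pcdhga, 53.2% in Pcdhgb and 54.4% in Pcdhgc, against 48.3% over all genes tested. Across the 53 members, which share the 6 libraries and differ in base composition by cluster, the rank correlation (Spearman's rho) of the log2 fold change with GC was -0.59, that with position along the chromosome -0.52 and that with mean level -0.17. Within the 22 beta genes rho with GC was 0.25 and with position -0.44. When trends on GC content and gene length were removed from every library, the medians were 0.29 for Pcdhb and -0.25 for Pcdhgc, and again 6 members were higher and 1 was lower. In that fit 2.06% of all genes were higher and 4.05% lower.

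The summed level of a marker list was lower in CBP-ifKO wherever the genotypes did not overlap, which was the case for 3 of the 8 lists. The summed markers of oligodendrocyte precursors were 248.5 to 280.9 CPM in Control and 219.2 to 233.4 in CBP-ifKO, and 3 of the 6 (Pdgfra, Cspg4 and Gpr17) fell. Past the same threshold, 4.99% of all genes tested were lower and 1.4% higher, the shares to set beside the calls of every list. Interneuron markers were at 739.6 to 759.3 against 678.0 to 718.2 CPM, with Sst and Slc32a1 lower past the threshold among 10. Astrocyte markers were at 2211 to 2249 against 2111 to 2178 CPM. Of these 10, 0 were past the threshold by edgeR, DESeq2 or limma-voom and 1 was lower at an unadjusted p under 0.05. Of the 10 excitatory markers 7 had a negative log2 fold change, and Nrgn, Wfs1 and Fibcd1 fell past the threshold. Their sum overlapped, but most of it came from Camk2a, the gene whose promoter drives creERT2. Camk2a had 1939 ± 215 CPM in Control and 2066 ± 130 in CBP-ifKO (log2 fold change 0.092, SE 0.073, adjusted p 0.516 by edgeR). The overlap of the sum therefore says little about the other markers of this list. Neurod2 and Prox1 had log2 fold changes of 0.20 and 0.22 (SE 0.070 and 0.079) with an unadjusted p under 0.05, without passing the adjusted test. Ranges also overlapped for oligodendrocytes (2544 to 3019 against 2622 to 2846 CPM), microglia (276.9 to 308.3 against 268.8 to 293.1 CPM), endothelial cells (228.0 to 246.9 against 199.4 to 246.0 CPM) and choroid plexus (220.1 to 257.0 against 202.2 to 243.1 CPM), with no gene of these lists past the threshold by edgeR, DESeq2 or limma-voom. At an unadjusted p under 0.05, 2 oligodendrocyte, 2 microglia and 2 endothelial markers were lower and 1 choroid plexus marker was higher, against 13% lower and 8.23% higher of all genes. No marker was at 0 in all libraries. In bulk tissue fewer cells of a type and less RNA per cell cannot be told apart, and the part of cell composition in the values of the protocadherins was not tested.

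Genes of related function were read from the same fit. Nonclustered protocadherins lie outside the clusters and have no promoter choice, and 2 of them, Pcdh1 and Pcdh12, are within 500 kb of the locus. Of the 11 tested, 10 had a negative log2 fold change, 3 fell and none rose, with a median of -0.15, against 4.99% of all genes lower and 1.4% higher. These were Pcdh8, an activity-regulated protocadherin (log2 fold change -0.57, SE 0.11, adjusted p 0.00380 by edgeR), Pcdh15, a part of the hair cell tip link (-0.44, SE 0.085, adjusted p 0.00517 by edgeR), and Pcdh20 (-0.30, SE 0.059, adjusted p 0.00536 by edgeR). Pcdh20 is in the list of lower genes that the study drew in part from these libraries, which makes it no independent evidence. Among 16 cadherins and catenins 4 fell and none rose (4.99% and 1.4% of all genes), with a median of -0.09. Cdh13 had a log2 fold change of -0.58 (SE 0.077, adjusted p 3.00e-04 by edgeR), and those of Cdh4, Cdh6 and Ctnnd2 were -0.55, -0.41 and -0.23 (edgeR adjusted p 0.0244, 0.0323 and 0.0415). Cdh4 lost its call without either Control replicate 1 or 3, and without CBP-ifKO replicate 1 or 2 (adjusted p 0.0506 to 0.147), Cdh6 without either Control replicate 2 or 3, and without CBP-ifKO replicate 2 or 3 (0.0529 to 0.184), and Ctnnd2 without either Control replicate 1 or 3, and without CBP-ifKO replicate 2 or 3 (0.118 to 0.191).

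Of 20 intracellular partners of protocadherins, which relay signals to kinases and the actin cytoskeleton, 3 fell and none rose, against 4.99% and 1.4% of all genes (median -0.09). Abi1, a subunit of the WAVE complex, had a log2 fold change of -0.28 (adjusted p 0.00641 by edgeR), Ptk2b, the kinase PYK2, one of -0.22 (0.0238), and Cyfip2, another WAVE subunit, one of -0.25 (0.0429). All 3 lost the call without CBP-ifKO replicate 3 (adjusted p 0.0693, 0.142 and 0.164). Ptk2b lost it also without Control replicate 3 (0.0795) or CBP-ifKO replicate 2 (0.122), and Cyfip2 without CBP-ifKO replicate 2 (0.210), Control replicate 1 (0.0745) or Control replicate 3 (0.224).

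Genes that set up protocadherin promoter choice were mostly not past the threshold. None of 12 genes of CTCF and cohesin passed the test by edgeR, DESeq2 or limma-voom, none had an unadjusted p under 0.05, and the median was 0.09. Ctcf itself, named after its value was seen, had 95.1 ± 2.63 CPM in Control and 94.5 ± 2.70 in CBP-ifKO. Of 11 further regulators of this choice 1 rose and none fell, against 1.4% of all genes higher and 4.99% lower. At an unadjusted p under 0.05, 2 of them were higher and none lower, against 8.23% and 13% of all genes. Rest, a transcriptional repressor with binding sites in the protocadherin locus, had a log2 fold change of 0.42 (SE 0.11, adjusted p 0.0273 by edgeR), from a mean of 14.4 CPM in Control to 19.3 CPM. Rest lost this call without Control replicate 1 (adjusted p 0.0580 by edgeR), Control replicate 3 (0.139), CBP-ifKO replicate 2 (0.0646) or 3 (0.131).

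Genes around the clusters did not pass the test. Within 500 kb of the locus and between its clusters 28 protein coding genes other than protocadherins and their read-through loci are annotated. Of these 23 were tested and 0 were past the threshold by edgeR, DESeq2 or limma-voom, with a median log2 fold change of 0.09. At an unadjusted p under 0.05, 2 were higher and 2 lower, against 8.23% and 13% of all genes. Chosen for their place after the values were seen, Taf7, a subunit of TFIID encoded between the beta and gamma clusters, had a log2 fold change of 0.23 (SE 0.12, adjusted p 0.266 by edgeR), and Diaph1, a formin gene beyond Pcdhgc5, one of -0.17 (SE 0.074, adjusted p 0.194 by edgeR).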

How the data were processed

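The authors trimmed single-end reads of 50 bp (FastQC 0.11.8, Trim Galore 0.6.4), aligned them with STAR 2.6.1 to GRCm38, removed reads of low mapping quality, and counted them with Rsubread over Ensembl exons. The deposited table holds raw, unnormalized counts for each gene. All 6 columns matched a sample title.

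From these, 17981 genes were tested with the quasi-likelihood F-test of edgeR 4.0.16 (R 4.3.3): TMM scaling, filterByExpr (minimum count 10, minimum total 15), Benjamini-Hochberg adjustment over all genes tested, and a threshold of 0.05. The SE is the size of the log2 fold change divided by the square root of F. CPM are TMM-scaled, as mean ± SD over 3 libraries. The common coefficient of variation between replicates was 6.81%. Alternatives used DESeq2 1.42.0 (the authors ran DESeq2 1.30.1), limma-voom (limma 3.58.1), robust dispersions, other scalings and filters, the replicate block, GC and length correction (splines with 5 degrees of freedom), and each library left out. The fit was tested on simulated data.

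Symbols, coordinates and shared exon bases came from GENCODE for GRCm38 (55230 identifiers, 99.57%, matched). Genes on the same scale are compared per kb of unshared exon, where overlap with a gene on either strand counts as shared. The members and lists were chosen with earlier results of these data known. Named were Crebbp, all members past the threshold, the C-type genes, in each group the largest change and the highest and lowest level per kb, and of each list up to 5 genes past the threshold. Esr1, Ctcf, Taf7, Diaph1, Pcdhb3, Pcdhb14, Pcdhb22, Pcdha9 and genes named only as an end of a range or as an annotation fell outside this rule, and were chosen after their values were seen or for their place. Cell-type markers are named where past the threshold, and Camk2a, Neurod2 and Prox1 were named after their values were seen. No sequences are printed.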

Additional observations from a re-analysis of the deposited data

How the results depend on the processing

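Across 17 alternatives, of which 11 kept all libraries, the number of members called higher stayed at 6 to 7 with all libraries and at 4 to 6 with 1 left out, and 1 member was lower in each. The whole table gave 1149 calls, 1838 with GC and length trends removed and the replicate block, and 498 to 1326 with 1 library left out (546 without Control replicate 3, 498 without CBP-ifKO replicate 2, 526 without CBP-ifKO replicate 3). Of the calls 21.9% were higher in CBP-ifKO, but 43.5% with total-count scaling (514 higher and 667 lower), 33.7% with GC and length trends removed (369 and 727) and 38.9% with these and the block (715 and 1123). The median of all genes was -0.0033, and 0.043 with total-count scaling.

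With 1 library left out, group medians ranged from 0.25 to 0.37 for Pcdhb (0.25 without CBP-ifKO replicate 2), from -0.092 to 0.084 for Pcdhga (negative without Control replicate 2, at -0.092, and without CBP-ifKO replicate 1, at -0.0083), from -0.045 to 0.14 for Pcdhgb (negative without Control replicate 2, at -0.045), from 0.08 to 0.29 for Pcdha and from -0.46 to -0.21 for Pcdhgc (-0.21 without CBP-ifKO replicate 2). Single genes near 0 changed sign: Pcdhgb7 was at -0.011 with limma-voom and ranged from -0.13 to 0.19 with 1 library left out, Pcdha12 from -0.17 to 0.024, Pcdhga3 from -0.25 to 0.084, Pcdhac1 from -0.24 to 0.077, and Ctcf from -0.032 to 0.017, reaching 0.0037 with upper-quartile and 0.036 with total-count scaling. The cause was not tested. Of 676 values for the 40 named genes under alternatives, 616 kept direction and side of the threshold, 41 lost the call, 6 (all Pcdhb22) gained it and 13 changed sign.

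Replicate numbers are shared by the groups. Deviations of same-numbered libraries from their group means correlated at 0.077, 0.037 and 0.0022 across genes, so the numbers were not treated as pairs. With the replicate block 6 members were higher and 1 was lower, of 1210 genes called. At 3 libraries a genotype and a few CPM, the SE of the alpha members lay between 0.15 and 0.30 and that of Pcdhb1 was 0.42.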
